A study of Mus musculus with 16 samples.

Results

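Receptors and ligands of the GDNF, neurotrophin and insulin-like growth factor systems were examined in mRNA carried by the ribosomes of dopaminergic neurons of the substantia nigra. The genes were chosen by name, with earlier results of these data known. They are the receptor genes Ret, Gfra1, Gfra2, Ntrk2, Ntrk3 and Igf1r and the ligand genes Bdnf and Ntf3. These 8 genes, of 25006 listed in the count tables, were matched to their Ensembl identifiers by symbol. All 8 had counts in each of the 16 mice, with at least 207 counts in every library, and all passed the filter on low counts that left 12390 genes for testing.

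The control mice carried 1 copy of the DAT-Cre driver (DAT-Cre +/-), and the MCU-KO mice carried the same driver together with 2 floxed alleles of the mitochondrial Ca2+ uniporter gene (DAT-Cre+/- MCU fl/fl). Both groups of 8 mice had received a viral vector that expresses a tagged ribosomal protein only in cells with Cre (the RiboTag approach), and substantia nigra tissue was taken 30 days later at postnatal day 45, according to the sample labels. In this model Cre is driven from the dopamine transporter locus, so that Mcu is deleted, and the tag expressed, only in cells that use this gene. Each library came from 1 mouse, and age, vector and driver were shared by both groups. According to the methods of the paper, the control mice came from a cross of DAT-Cre+/+ with C57/BL6 mice. The MCU-KO mice came from the floxed line crossed with DAT-Cre mice. Breeding line and Mcu deletion therefore cannot be told apart between the groups.

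GDNF and its relatives neurturin, artemin and persephin bind to GFRα coreceptors on the cell surface, and the complex then activates the receptor tyrosine kinase RET. The neurotrophins act in a comparable way through the TRK receptor kinases, of which TRKB, encoded by Ntrk2, binds BDNF and neurotrophin-4, and TRKC, encoded by Ntrk3, binds neurotrophin-3. Midbrain dopaminergic neurons respond to GDNF, neurturin, BDNF and IGF-1 in culture, and the striatum that they innervate is a source of GDNF and neurturin for them.

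Between 18999107 and 22016362 reads were counted on genes in control mice and between 14129527 and 20582204 in MCU-KO mice. The lowest total was that of MCU-KO mouse 8. Of 12 markers of dopaminergic neurons, 12 were counted in all 16 libraries, and their summed level lay between 14028 and 17692 CPM (the count scaled to the total of its library) in control and between 12353 and 19886 CPM in MCU-KO mice. Transcripts of other cells were also present. The 9 oligodendrocyte markers summed to between 2888 and 5783 CPM in control and between 3445 and 6778 CPM in MCU-KO mice, the 9 astrocyte markers to between 502.3 and 995.2 CPM and between 575.6 and 1170 CPM, the 8 microglial markers to between 64.5 and 226 CPM and between 66.3 and 370.3 CPM, the 5 endothelial markers to between 20.5 and 61.0 CPM and between 16.4 and 53.3 CPM, the 5 GABAergic markers to between 228 and 442 CPM and between 244 and 413 CPM, and the 2 glutamatergic markers to between 13.0 and 49.9 CPM and between 12.3 and 106.7 CPM, in the same order of groups. Of all these markers, 0 passed an adjusted p of 0.05 between genotypes in edgeR. Normalized counts of Mcu, counted over the whole gene and not over the floxed part alone, ranged from 120.3 to 828.2 in control and from 5.82 to 410.1 in MCU-KO mice, and 7 of 8 MCU-KO mice were below the control median. The means were 454 ± 274 (SD, n = 8) in control and 199.9 ± 139 (SD, n = 8) in MCU-KO mice, and the log2 fold change was −1.19 (95% confidence interval, CI, −2.41 to 0.04, unadjusted p = 0.0569 and adjusted p = 1.00 from edgeR), and the ranges overlapped.

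None of the 8 trophic factor genes differed between genotypes at an adjusted p under 0.05 (quasi-likelihood test of edgeR, Benjamini-Hochberg adjusted over the whole table), where 0.178% of the 12390 genes tested did, 0.0888% higher and 0.0888% lower in MCU-KO. DESeq2 and limma-voom also gave 0 of 8. At an unadjusted p under 0.05, 1 of 8 was found, Ntf3, which was higher in MCU-KO, where 4.41% of all genes tested lay under this threshold, 2.25% higher and 2.16% lower. The normalized counts of the genotypes overlapped in 8 of 8 genes, whereas 0.258% of all genes tested had groups that did not overlap. By sign alone, 5 genes were higher and 3 were lower in MCU-KO, with a median log2 fold change of 0.12, beside a median of 0.003 over all genes tested. The precision differed between the genes. For Ret, Gfra1 and Ntrk2, 3 of the 8 genes, the 95% CI stayed within ±0.5 log2 units, and for 7 of the 8 within ±1, the exception being Ntf3.

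**Figure D1:**
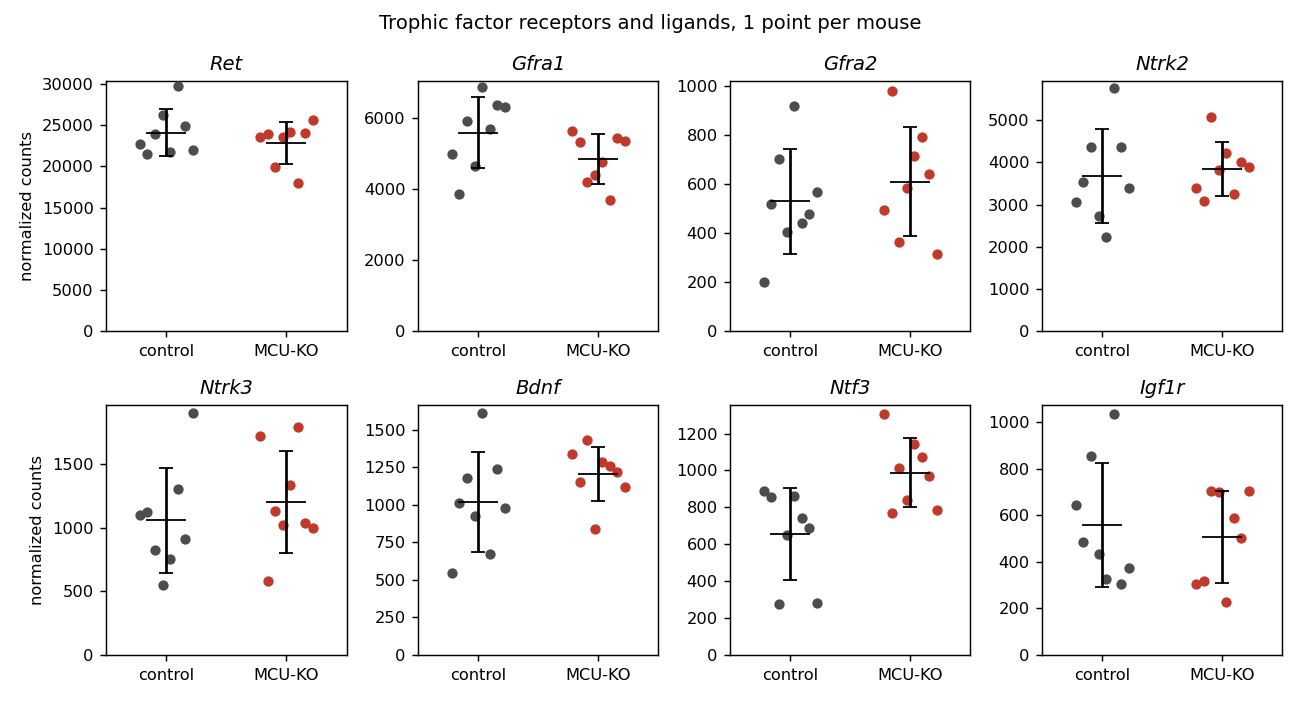
Normalized counts (counts divided by DESeq2 size factors, vertical axis from 0) of the 8 trophic factor genes in each control mouse (gray) and each MCU-KO mouse (red), with mean and SD (horizontal bar and whiskers, n = 8). The groups overlap in every panel, and in Ntf3 the 8 MCU-KO mice lie between 770.5 and 1305 while the control mice lie between 278 and 887.

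Ret, on the minus strand of chromosome 6 (118151745 to 118197718 of GRCm38), encodes the signaling receptor shared by the GDNF family ligands. It was the most abundant of the 8 genes, with normalized counts (counts divided by the size factor of the library) of 21563 at the lowest, 23342 at the median and 29783 at the highest of the control mice. The MCU-KO mice had 18027, 23775 and 25660 in the same order. The ranges overlapped, and the 2 lowest values of all 16 mice were those of MCU-KO mice 6 and 3. The means were 24115 ± 2825 (SD, n = 8) in control and 22881 ± 2533 (SD, n = 8) in MCU-KO mice. The log2 fold change was −0.08 with a standard error (SE) of 0.08 and a 95% CI from −0.25 to 0.10, or between 0.84 and 1.07 of the control level. Ret was also the steadiest of the 8 genes, with a coefficient of variation between mice of 11.7% in control and 11.1% in MCU-KO mice. MCU-KO mouse 6, the lowest in Ret, also had the lowest summed level of dopaminergic markers, 12353 CPM. MCU-KO mouse 8, with the next lowest sum, 13890 CPM, had the highest Ret of the MCU-KO mice, 25660. MCU-KO mouse 3, the next lowest in Ret, had a sum of 16269 CPM. The part of the marker level in the result was not tested. In such pooled tissue, fewer tagged neurons and less of the mRNA per neuron cannot be told apart.

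Gfra1 (chromosome 19, 58235604 to 58455909, minus strand) encodes the coreceptor that binds GDNF. Control mice had 3877, 5818 and 6887 normalized counts at the lowest, median and highest, and MCU-KO mice had 3683, 5047 and 5641. In 5 of 8 control mice the level was above that of every MCU-KO mouse, and 0 of 8 MCU-KO mice exceeded the control median. On average Gfra1 was at 5594 ± 1010 (SD, n = 8) in control and 4853 ± 699 (SD, n = 8) in MCU-KO mice, with a log2 fold change of −0.21 (SE 0.12, 95% CI −0.45 to 0.04, unadjusted p = 0.0996 and adjusted p = 1.00 from edgeR). With control mouse 2, the lowest control, left out, the log2 fold change was −0.26. The unadjusted p from edgeR was then 0.0285, and the adjusted p was 1.00. Of the 24 alternatives run for Gfra1, only this omission gave an unadjusted p under 0.05. With the mean of 26 markers of astrocytes, oligodendrocytes and microglia as a covariate the log2 fold change was −0.12. The unadjusted p from edgeR in that fit was 0.283. Permuting the genotype labels of the log2 normalized counts plus 1 gave an exact p of 0.135 without adjustment. Of the stretches of 50 bases in Gfra1 transcripts, 6.66% lie in the antisense gene Gm16277, which is not in the count tables, and without a statement of strand the counts of both cannot be told apart.

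Gfra2 (chromosome 14, 70890120 to 70979838, plus strand) encodes the coreceptor that prefers neurturin. Its normalized counts were 201 at the lowest, 499 at the median and 921 at the highest in control mice and 316, 612 and 982 in MCU-KO mice. Both groups were spread over more than a 3-fold range and covered nearly the same values. The log2 fold change of 0.20 had a SE of 0.30 and a 95% CI from −0.42 to 0.83. Per kb of exon, Gfra1 exceeded Gfra2 in 8 of 8 control mice, by a factor of at least 4.83 and of 7.26 in the geometric mean, and in 8 of 8 MCU-KO mice, by a factor of at least 3.00.

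The remaining genes of this family differed widely in their counts and in the number of mice where they were detected. Gfra4, which encodes the coreceptor for persephin, was counted in all 16 mice and had 1855 ± 276 normalized counts (SD, n = 8) in control and 1945 ± 259 (SD, n = 8) in MCU-KO mice. Its log2 fold change was 0.07 with a 95% CI from −0.19 to 0.33, so that this coreceptor was measured about as precisely as Gfra1. Per kb of exon, Gfra1 and Gfra4 were at a ratio between 0.87 and 1.66 in control mice and between 0.88 and 1.10 in MCU-KO mice. Gfra3, the artemin coreceptor, had no count in 16 of 16 libraries, which allows a level of up to between 0.136 and 0.212 CPM, depending on the library, if 3 counts are taken as the limit of detection. The ligands were scarce. Gdnf was at 0 counts in 8 of 8 control and 6 of 8 MCU-KO mice, with 81 counts in MCU-KO mouse 1 and 8 counts in MCU-KO mouse 4. Artn was counted in 5 of the 16 mice, with at most 111 counts, and Pspn in 4 of 16 with at most 54 counts. Neurturin was the exception, since Nrtn was counted in all 16 mice, with 158 ± 111 normalized counts (SD, n = 8) in control and 118 ± 41.4 (SD, n = 8) in MCU-KO mice. Its log2 fold change of −0.42 had a 95% CI from −1.65 to 0.80, which leaves the direction undetermined.

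**Figure D2:**
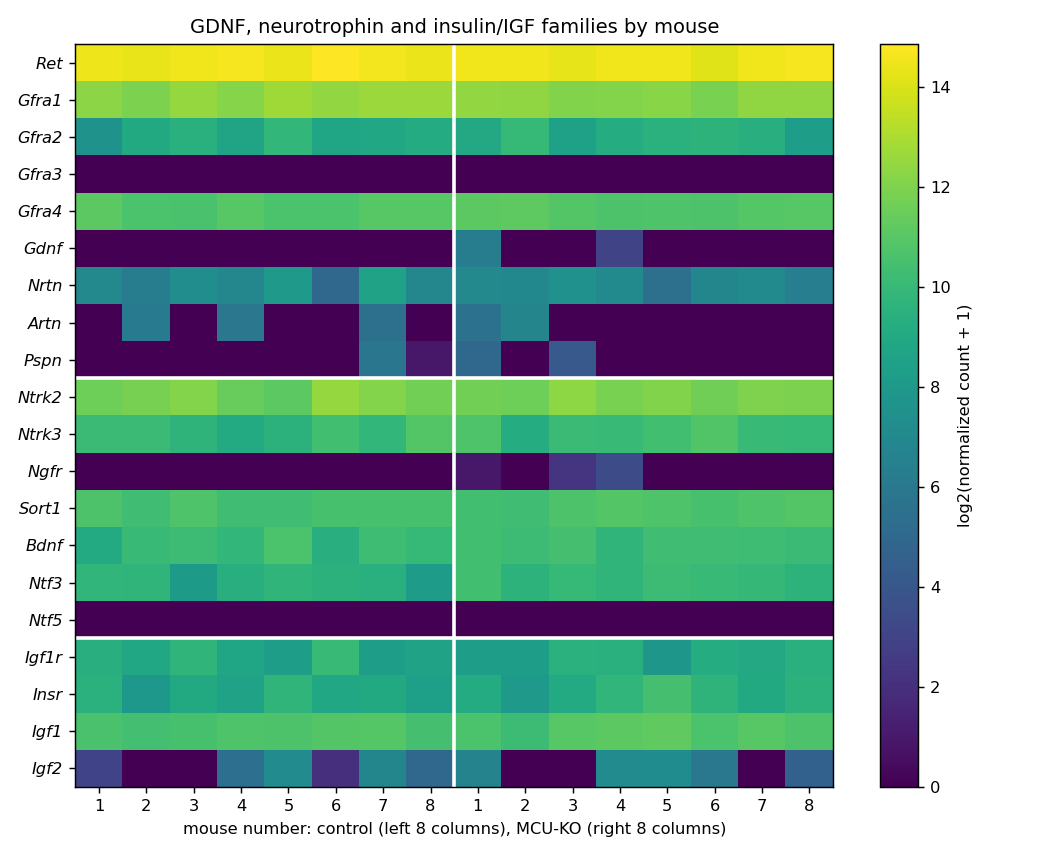
Heat map of log2(normalized count + 1) of 20 genes (rows; from top to bottom GDNF family, neurotrophin family, insulin and IGF family, separated by white lines) in 8 control mice (left) and 8 MCU-KO mice (right). Ret, Gfra1, Gfra4, Ntrk2, Sort1 and Igf1 are high in all columns, whereas Gfra3 and Ntf5 are at 0 in all 16 mice and Gdnf is above 0 in 2 of 16.

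Of the neurotrophin receptors, Ntrk2 (chromosome 13, 58806569 to 59133970, plus strand) had the most counts. Its lowest, median and highest normalized counts were 2240, 3461 and 5748 in control mice and 3072, 3854 and 5073 in MCU-KO mice. The MCU-KO values fell inside the range of the control values, whose extremes were control mice 5 and 6. The log2 fold change was 0.06 with a SE of 0.16 and a 95% CI from −0.27 to 0.39, and its sign turned when control mouse 5 (−0.018) or MCU-KO mouse 3 (−0.0073) was left out. Ntrk2 has 10 annotated transcripts. They include forms without the kinase domain, which are abundant in astrocytes, and a count per gene does not separate these from the full-length receptor. The summed level of the 9 astrocyte markers overlapped between the genotypes (median 746 CPM in control and 832 CPM in MCU-KO mice), and with the mean of the 26 glial markers as a covariate the log2 fold change of Ntrk2 was again 0.06.

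Ntrk3 (chromosome 7, 78175959 to 78738012, minus strand) was present at lower counts. The lowest, median and highest normalized counts were 552, 1006 and 1898 in control mice and 578, 1081 and 1791 in MCU-KO mice, nearly the same range. The log2 fold change was 0.18 (SE 0.25, 95% CI −0.33 to 0.69). Per kb of exon, Ntrk2 exceeded Ntrk3 in 8 of 8 control mice, by a factor between 2.79 and 8.25, and in 8 of 8 MCU-KO mice by a factor between 2.83 and 8.31. Ngfr, which encodes the low-affinity receptor p75, was counted in 3 of 16 mice with at most 11 counts. Sort1, which encodes the sorting receptor sortilin, a partner of p75 and of the neurotrophin precursors, had 1461 ± 190 normalized counts (SD, n = 8) in control and 1633 ± 246 (SD, n = 8) in MCU-KO mice, and the difference on the log2 scale had a 95% CI from −0.12 to 0.44.

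Both neurotrophin genes among the 8 were counted in every library. Ntf5, which encodes neurotrophin-4, had no count in 16 of 16 mice. Bdnf (chromosome 2, 109674700 to 109727007, plus strand) had 546 normalized counts at the lowest, 998 at the median and 1614 at the highest in control mice, and 836, 1240 and 1435 in MCU-KO mice. In 7 of 8 MCU-KO mice Bdnf was above the control median, and the MCU-KO values lay inside the control range. On average Bdnf was at 1021 ± 334 (SD, n = 8) in control and 1206 ± 180 (SD, n = 8) in MCU-KO mice, and the log2 fold change was 0.24 (SE 0.20, 95% CI −0.17 to 0.65). The coefficient of variation between mice was 32.7% in control and 14.9% in MCU-KO mice, a difference that was not tested. Of the stretches of 50 bases in Bdnf transcripts, 12.7% lie in the antisense gene Gm45346, which was not counted either, and reads of both cannot be told apart.

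Bdnf is transcribed from several promoters, and 11 transcripts are annotated that differ in their first exon and share the coding exon, so that a count per gene pools all of them. Transcription from one of these promoters is known to respond to Ca2+ entry in cortical neurons through an element that binds CREB, and whether the window shown here is that promoter was not examined. RefSeq promoter windows, each from 250 bases before to 50 bases after a start site, were on hand for 5 of the 8 genes with 12 windows in all, 7 of them of Bdnf. The letters TGACGT, searched on both strands, occurred in 1 of the 12 windows and in 7.51% of 32851 mouse promoter windows of the same length, and the longer TGACGTCA, which contains them, occurred in 0 of 12 and in 1.79% of all. The nuclear receptor motif AAAGGTCA (1.51% of all) and the EGR motif GCGTGGGCG (0.612% of all) were in 0 of the 12 windows, and CACGTG (7.15% of all) was in 1, of Ntf3. The Bdnf window with the match is shown because Bdnf had the most windows of the 5 genes with any. Its 83 bases before the start site, chr2:109692353-109692435 on the plus strand of GRCm38.p6, are printed 5′ to 3′, with the match, which reads TGACGT on the opposite strand, in capitals.
Bdnf promoter: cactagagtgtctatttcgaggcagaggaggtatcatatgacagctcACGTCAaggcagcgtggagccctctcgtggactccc
The match begins 36 bases before the start site. The counts do not tell which of the Bdnf promoters was in use in these neurons.

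Ntf3 (chromosome 6, 126101412 to 126166910, minus strand), which encodes neurotrophin-3, had the largest difference of the 8 genes. Control mice had normalized counts of 278 at the lowest, 714 at the median and 887 at the highest, and MCU-KO mice had 770.5, 991 and 1305. All 8 MCU-KO mice were above the control median, 5 of them were above the highest control mouse, and 5 of 8 control mice were below the lowest MCU-KO mouse. Control mice 3 and 8, at 278 and 280, stood well below the other 6 control mice, which lay between 649.5 and 887. The means were 655 ± 247 (SD, n = 8) in control and 988 ± 186 (SD, n = 8) in MCU-KO mice, a log2 fold change of 0.59 with a SE of 0.25 and a 95% CI from 0.07 to 1.11, or between 1.05 and 2.16 times the control level. The unadjusted p was 0.0272 and the adjusted p was 1.00 in edgeR, and this p ranked 323 of 12390. The exact permutation test over all 12870 splits of the mice was applied to log2 normalized counts plus 1. It gave a two-sided p of 0.0059 without adjustment, the smallest among the 8 genes, their partners and Mcu. The 8 genes were chosen with earlier results of these data known, which this p does not take into account. Across the alternative fits the adjusted p lay between 0.253 and 1.00 (edgeR, DESeq2 and limma-voom), so that the difference passed the adjustment in none of them. Without control mouse 3 or control mouse 8, the lowest controls, the log2 fold change was 0.48 in either fit. The unadjusted p from edgeR was then 0.0493 and 0.0499. Without MCU-KO mouse 1, the highest of all 16 mice, the log2 fold change was 0.53 and the unadjusted p from edgeR was 0.0570. Without the shallow MCU-KO mouse 8 the log2 fold change was 0.64. With the glial marker mean as a covariate it was 0.65. Per kb of exon, Ntf3 was above Bdnf in 7 of 8 control and 8 of 8 MCU-KO mice, at ratios from 0.86 to 5.88 in control and from 2.43 to 3.64 in MCU-KO mice.

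Igf1r (chromosome 7, 67952827 to 68233668, plus strand) encodes the receptor kinase for IGF-1 and IGF-2 and was the most variable of the 8 genes. The lowest, median and highest normalized counts were 304, 459 and 1034 in control mice and 229, 544 and 706 in MCU-KO mice. Control mice 6 and 3 were above every MCU-KO mouse, and MCU-KO mice 5 and 1 were below every control mouse. The coefficient of variation was 47.7% in control and 39.3% in MCU-KO mice, where the median over all genes tested was 42.6% in control mice and 7 of the 8 genes were below this median. The log2 fold change of −0.14 (SE 0.32, 95% CI −0.81 to 0.53) turned to 0.06 when control mouse 6 was left out and was −0.30 with the glial marker mean as a covariate. Insr, which encodes the insulin receptor, had 504 ± 203 normalized counts (SD, n = 8) in control and 722 ± 351 (SD, n = 8) in MCU-KO mice, and the difference on the log2 scale had a 95% CI from −0.14 to 1.18. The ligand gene Igf1 was counted in all 16 mice, with 1634 ± 217 normalized counts (SD, n = 8) in control and 1846 ± 398 (SD, n = 8) in MCU-KO mice. Its log2 fold change was 0.18 with a 95% CI from −0.13 to 0.48, and 4 of 8 MCU-KO mice were above the highest control mouse while 1 was below the lowest. Igf2 was at 0 counts in 2 control and 3 MCU-KO mice and did not exceed 156 counts.

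**Figure D3:**
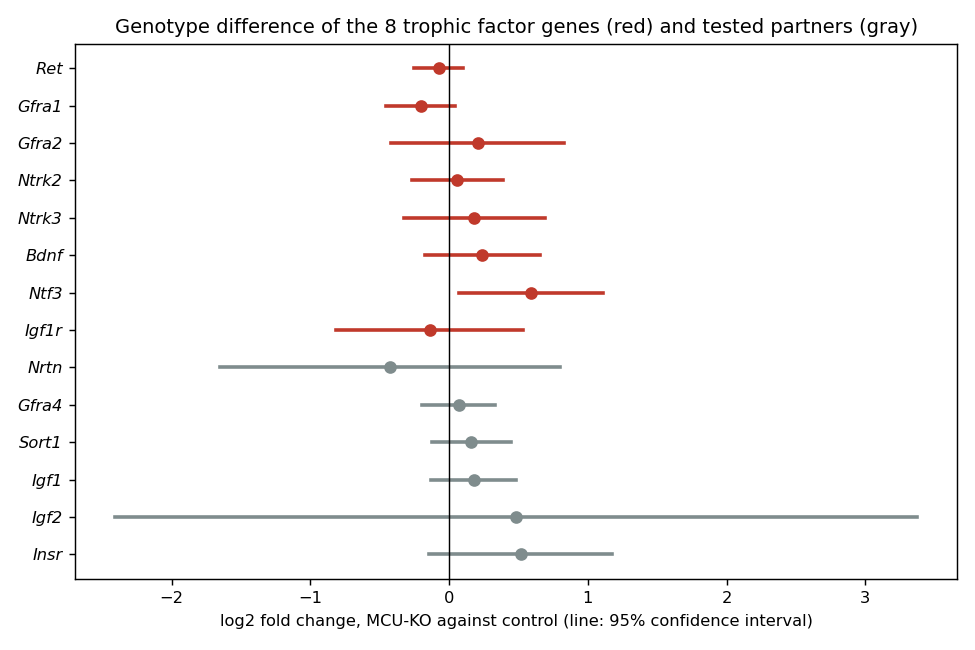
Log2 fold change of MCU-KO against control (horizontal axis) with its 95% CI for the 8 trophic factor genes (red) and the 6 partner genes that passed the filter on low counts (gray). The interval of Ntf3, from 0.07 to 1.11, is the only one here that excludes 0 before adjustment, and the intervals of Nrtn and Igf2 are the widest.

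To compare levels between genes, counts were divided by the length of all annotated exons of a gene and by the library total (RPKM). In control mice Ret was at 184 ± 20.7 RPKM (SD, n = 8), above 97.1% of the 12390 genes tested, and Gfra1 at 52.9 ± 9.58 RPKM (SD, n = 8), above 90.0%. Ntf3 followed with 19.7 ± 7.38 RPKM (SD, n = 8), Ntrk2 with 9.86 ± 2.93 (SD, n = 8), Bdnf with 8.51 ± 2.82 (SD, n = 8) and Gfra2 with 7.77 ± 3.17 (SD, n = 8). Ntrk3 at 1.81 ± 0.71 RPKM (SD, n = 8) and Igf1r at 1.71 ± 0.81 RPKM (SD, n = 8) were the lowest, above 24.4% and 23.2% of the genes tested. MCU-KO mice had the same order of means. A ligand, Ntf3, thus ranked number 3 of the 8 genes by its mean on this scale, above 77.0% of the genes tested.

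Neighbours in this order were compared within mice, by the mean log2 ratio of RPKM after adding 1 count. An exact two-sided sign-flip permutation test was run over the 8 control mice, for which the smallest possible p is 0.0078. The pairs were taken from the order in these same mice, so the p-values describe that order and do not test it independently. The adjustment over the 7 pairs does not account for this choice. Over the 7 neighbouring pairs, Ret exceeded Gfra1 by a log2 ratio of 1.82 ± 0.32 (SD, n = 8), Gfra1 exceeded Ntf3 by 1.52 ± 0.84 (SD, n = 8), and Gfra2 exceeded Ntrk3 by 2.07 ± 0.89 (SD, n = 8), each in 8 of 8 mice and at the smallest possible exact p (0.0182 after Benjamini-Hochberg adjustment over the 7 pairs). Ntf3 exceeded Ntrk2 by 0.94 ± 0.90 (SD, n = 8) in 6 of 8 mice (exact permutation p = 0.0391, and 0.0684 after adjustment). When the length of the longest transcript was used, which for Ntrk2 is 8744 bases in place of 19292, this log2 ratio was 0.003 (exact permutation p = 0.992). Ntrk2 and Bdnf (log2 ratio 0.23 ± 0.75, SD, n = 8), Bdnf and Gfra2 (0.17 ± 0.31, SD, n = 8) and Ntrk3 and Igf1r (0.12 ± 0.78, SD, n = 8) did not differ beyond their spread between mice, with exact permutation p of 0.367, 0.188 and 0.672. With the longest transcript the first 2 of these log2 ratios were 0.83 and 0.69 (exact permutation p = 0.0234 and 0.0078), so that the length used changed the size of these ratios, while the order of the means was the same with both lengths. In MCU-KO mice Gfra1 exceeded Ntf3 by a log2 ratio of 0.63 and Ntf3 exceeded Ntrk2 by 1.53, each in 8 of 8 mice.

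**Figure D4:**
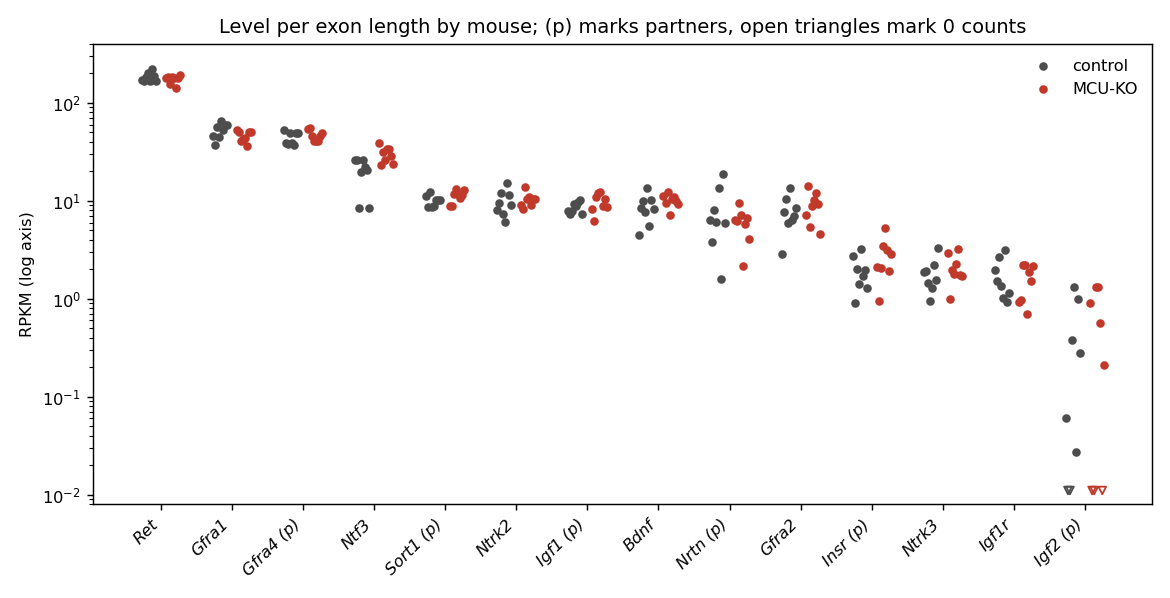
RPKM per mouse (log axis) of the 8 trophic factor genes and of the partner genes that were tested, marked (p), in control (gray) and MCU-KO mice (red), ordered by the control mean; open triangles stand for 0 counts. Ret, at 184 RPKM on average in control mice, is well above Gfra1 at 52.9, and Ntrk3 and Igf1r lie near 1.8.

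The wider signaling pathways were represented by 8 lists. Apart from the 8 genes themselves, they held 144 genes, of which 117 were tested and 0 differed at an adjusted p under 0.05 in edgeR, in DESeq2 or in limma-voom. At an unadjusted p under 0.05 in edgeR, 6 of the 117 were found, 5 higher and 1 lower in MCU-KO, or 5.13% beside 4.41% of all genes tested. In the GDNF family list, 7 of 13 genes were tested and 0 had an unadjusted p under 0.05, with a median log2 fold change of 0.01. In the neurotrophin family list, 9 of 13 were tested and Ntf3 alone had an unadjusted p under 0.05, with a median of 0.06. The insulin and IGF list had 12 of 16 genes tested, 10 of them higher and 2 lower by sign, with a median log2 fold change of 0.40 and 0 with an unadjusted p under 0.05. Igfbp5, an IGF-binding protein, came first by p and had 1309 ± 346 normalized counts (SD, n = 8) in control and 1702 ± 497 (SD, n = 8) in MCU-KO mice.

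Among the adaptors that couple these receptors to their pathways, 23 of 24 were tested, with 9 higher and 14 lower by sign. Of all genes tested, 2.25% were higher in MCU-KO at an unadjusted p under 0.05. Among the adaptors 3 of 23, or 13.0%, were under this threshold, all higher in MCU-KO. These were Grb10, an adaptor that binds the insulin and IGF-1 receptors, Frs2, a docking protein of FGF and TRK receptors, and Sos1, an exchange factor for RAS, of which Frs2 and Sos1 were named after their values were seen. Grb10 had 1628, 2129 and 2396 normalized counts at the lowest, median and highest in control mice and 2276, 2562 and 3088 in MCU-KO mice. In 6 of 8 MCU-KO mice it was above the highest control mouse, and its log2 fold change was 0.30 (SE 0.11, unadjusted p = 0.0149 and adjusted p = 0.944 from edgeR). The log2 fold changes of Frs2 and Sos1 were 0.56 and 0.65, both with an adjusted p of 1.00 from edgeR.

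In the RAS-MAPK and PI3K-AKT list 27 of 28 genes were tested, 15 higher and 12 lower by sign, with a median log2 fold change of 0.07. Only Pik3ca, the p110α catalytic subunit of PI3K, had an unadjusted p under 0.05 in this list, with 1102 ± 226 normalized counts (SD, n = 8) in control and 1628 ± 499 (SD, n = 8) in MCU-KO mice (log2 fold change 0.56, adjusted p = 0.849 from edgeR). Of the feedback inhibitors 13 of 15 were tested, 3 higher and 10 lower by sign, with a median of −0.15. The smallest p over all these lists was that of Nedd4, a ubiquitin ligase, with 4576, 5625 and 6780 normalized counts at the lowest, median and highest in control mice and 3305, 4115 and 5398 in MCU-KO mice. In 5 of 8 MCU-KO mice Nedd4 was below every control mouse, and the log2 fold change, −0.38, had a SE of 0.11 (unadjusted p = 0.0029 and adjusted p = 0.557 from edgeR). Of the genes for neurotrophin processing and release 7 of 8 were tested, 6 higher and 1 lower by sign, with a median of 0.10. The smallest p there was that of Cadps2, which promotes the release of dense-core vesicles, with a log2 fold change of 0.24 (95% CI −0.02 to 0.49). Of 35 other trophic factors and receptors, 27 were tested, 15 higher and 12 lower by sign with a median of 0.06, and only Alk, a receptor tyrosine kinase, had an unadjusted p under 0.05 among them. Alk reached 58.8 ± 49.6 normalized counts (SD, n = 8) in control and 192 ± 97.0 (SD, n = 8) in MCU-KO mice, and the log2 fold change, 1.71, had a 95% CI from 0.06 to 3.36 and an adjusted p of 1.00 from edgeR.

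Between any 2 of the 8 genes, the Pearson r of log2 CPM over the 16 mice, with the mean of each genotype subtracted, lay between −0.47 and 0.57. The 3 genes whose log2 CPM followed each of them most closely by the same measure were sought among 8936 genes with at least 10 counts in every mouse, and they are given as a description, since the highest of so many values is chosen and all values share library depth and scaling. Ret was followed by Dlk1, Cdh8 and Clstn1 (Pearson r between 0.82 and 0.86 over 16 mice), Gfra1 by Ccdc85b, Cptp and Atp5d (0.82 to 0.84), and Gfra2 by Arhgap12, Nol8 and D630045J12Rik (0.77 to 0.80). Ntrk2 was followed by Fxyd7, Csmd1 and Alkbh5 (0.75 to 0.88), Ntrk3 by Gon7, Srrm4 and Cog2 (0.83 to 0.85), Bdnf by Cars, 9130401M01Rik and Capzb (0.84 to 0.90), Ntf3 by Zfp948, Msmo1 and Zfp800 (0.77 to 0.79), and Igf1r by Rnf170, Gria3 and Psme4 (0.80 to 0.84). None of the 8 genes was among the 3 nearest of another, and the highest value among them was that of Bdnf and Gfra2.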

How the data were processed

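The authors removed adapters (cutadapt in the methods, Trim Galore in the submitters' processing notes), mapped the reads to mm10 by STAR, assigned them to Ensembl genes by htseq-count, and deposited whole-number counts for each of 16 mice without normalization. Versions, Ensembl release and strand setting are not given in the sources used here. Gene names and positions are those of GENCODE M21 (GRCm38, equal to mm10), where 24991 of 25006 identifiers had a symbol.

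The genotypes were compared with edgeR 4.0.16 in R 4.3.3 (filterByExpr, TMM, glmQLFit and glmQLFTest, no covariate) and p-values were adjusted by Benjamini-Hochberg across the 12390 genes that passed, with 0.05 as the limit. Confidence intervals came from the coefficient and the F statistic. Normalized counts are counts divided by DESeq2 1.42.0 size factors. Alternatives were DESeq2, limma 3.58.1 (voom), RLE normalization, no filter, a minimum of 10 counts per mouse, the mouse number as a block, a glial covariate and the omission of each mouse. The scripts were tested on simulated data. In counts simulated with the means, spread and library sizes of the 12390 genes, 200 genes were changed at a time. At an adjusted p under 0.05, edgeR recovered 9.5% of them at a 1.5-fold change, 26.0% at 2-fold and 63.0% at 4-fold.

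The deposited counts gave between 14129527 and 22016362 per library, where 3 counts correspond to 0.136 to 0.212 CPM, a limit for counting error alone, as PCR copies were not told apart by molecular identifiers. The 8 genes, the lists and the tests were chosen with earlier results of these data known. Named were the 8 genes, 12 direct partners (the others are not reported here), in each other list the gene with the smallest p, and the 3 nearest genes of each of the 8. Same-numbered mice of the 2 genotypes are different animals. Python 3.11.15, numpy 2.4.6, pandas 2.3.3 and matplotlib 3.10.9 were used for tables, exact tests and plots.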

Additional observations from a re-analysis of the deposited data

Results flagged for a closer look

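MCU-KO mouse 8 had 14129527 counts, far below the other 7 MCU-KO mice by the ratio of its gap to the range of the group (0.894). It was the only mouse that stood apart in 32 groups of 8 values examined, where about 1 in 20 groups is expected by chance. Without this mouse 19 genes in place of 22 had an adjusted p under 0.05 in edgeR, and 0 of the 8 trophic factor genes were among them.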

How the results depend on the processing

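Of 284 alternative values, 276 kept their direction and their side of the threshold, or for counts stayed within 1.5 times. For genotype differences the side was judged by the adjusted p. Shifts in the unadjusted p therefore count among the 276. For Gfra1 that p went from 0.0996 to 0.0285 in edgeR without control mouse 2. The number of trophic factor genes and of pathway genes with an adjusted p under 0.05 was 0 under every alternative fit run. Over all genes, 90 passed with DESeq2, 53 higher and 37 lower in MCU-KO, and 14 with the replicate block, in place of 22, and the cause was not tested. When each mouse was left out in turn, the log2 fold change of Ntrk2 lay between −0.018 (−0.0073 without MCU-KO mouse 3) and 0.18 and that of Igf1r between −0.23 and 0.055, so that both changed sign, while that of Ntf3 lay between 0.48 and 0.67. The other 5 genes kept their sign, but their log2 fold changes moved, that of Ret between −0.099 and −0.023 (without control mouse 6), of Gfra1 between −0.26 and −0.15, of Gfra2 between 0.074 (without MCU-KO mouse 2) and 0.37 (without control mouse 5), of Ntrk3 between 0.077 (without MCU-KO mouse 6) and 0.36 (without control mouse 8) and of Bdnf between 0.15 (without control mouse 1) and 0.37 (without control mouse 5). With the longest transcript length, the level ratio of Ntf3 to Ntrk2 on the log2 scale (0.003) was no longer under an exact p of 0.05, and those of Ntrk2 to Bdnf (0.83) and of Bdnf to Gfra2 (0.69) were.

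The deviations of same-numbered mice from their group means correlated between −0.06 and 0.03, and 0 of 8 control mice correlated best with the MCU-KO mouse of the same number. The labels state no batch, and these correlations cannot tell whether some mice were handled together. With the replicate block, Ntf3 had a log2 fold change of 0.69. The 95% confidence intervals allow levels up to 1.77 times the control level for Gfra2, 1.62 times for Ntrk3 and 1.57 times for Bdnf. For Igf1r they allow a level down to 0.57 times the control level. The p-values from edgeR set each difference against the spread between mice and counting error, and they cover no other source of error.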
